A study of Oryctolagus cuniculus with 9 samples.

Results

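Many cells of the adult body keep a record of where in the embryo they arose in the HOX genes and other transcription factors of position that they express, and the mRNA of these factors was measured in the line HA-VSMC with and without estradiol. Members were chosen by symbol: every HOX gene of clusters A to D, every TBX, MEIS, PBX and GATA factor, the sine oculis homologues such as SIX2 and SIX4, and HAND1, HAND2, WT1, EMX2, TWIST1, TWIST2, PRRX1 and FOXF1. The rule found 69 rows among the 19291 genes of the deposited table, 35 of them HOX genes and 34 other factors. The study sequenced mRNA from 9 libraries in 3 groups of 3, namely cells given β-estradiol at 50 nM, cells given β-estradiol at 250 nM, and control cells. The labels give the same line, growth medium and harvest at 48 h for all of them, and a series title and design that concern estrogen in adenomyosis, a disease in which endometrium grows into the muscle of the uterus. The labels name no separate cultures, so the spread between libraries of a group may be technical, and p-values measure only that spread.

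HOX genes lie in 4 clusters, and within each of them a low paralog number marks genes used towards the head of the embryo and a high number genes used towards the tail. Adult mesenchymal cells, among them smooth muscle cells and fibroblasts, commonly keep the combination set in the embryo, which is why it is read as a positional code. PBX and MEIS proteins are homeodomain partners that bind DNA together with HOX proteins. TBX, GATA, HAND and TWIST factors, sine oculis homologues, WT1, EMX2, PRRX1 and FOXF1 are used in limb, heart, gut, kidney, gonad and body wall, and most of them serve several of these sites. No member belongs to a single tissue, so the code below is given as levels and not as a name for a tissue.

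The name of the line is in common use for vascular smooth muscle cells from the human aorta, while the labels give the rabbit as the organism and do not spell the name out. Of 10 smooth muscle marker genes with a row, 6 had a mean of at least 1 FPKM (fragments scaled by library size and transcript length). ACTA2 averaged 1286 FPKM, TPM2 998 FPKM and CALD1 424 FPKM, but the late contractile gene MYH11 averaged 5.18 FPKM, the smooth muscle coactivator MYOCD 0.406 FPKM, and DES was listed at 0. Fibroblast and mesenchymal markers reached that level for 9 of 10 genes, so the markers do not separate smooth muscle from other mesenchymal cells. None of 8 endothelial, 5 leukocyte, or 7 skeletal and cardiac muscle markers reached it, with KDR listed at 0. Of the epithelial list 1 of 7 did (KRT7, 2.48 FPKM) with EPCAM at 0, and of the neural list 1 of 4 did (TFAP2A, 67.97 FPKM). Library totals ran between 54718407 and 72274464 deposited count units, of which about 4 stand for 1 fragment, and the members held 0.0790% to 0.0943% of them.

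A member was called on where its mean over the 9 libraries was at least 1 FPKM. By that measure 37 of the 69 members were on (53.6%), against 53.4% of all 19291 genes. The members covered a wide range of levels: PRRX1 averaged 237 FPKM, the next member 25.8 FPKM, and 9 members were listed at 0 in all 9 libraries. Those 9 were HOXB1, HOXB13, HOXC12, HOXD12, HAND1, TBX5, TBX22, SIX6 and GATA1. Near the limit stood HOXB9 and HOXB7 at 1.23 and 1.25 FPKM inside it, and TBX6 at 0.929 and HOXA10 at 0.914 FPKM outside it. By group means, 37 members were on in control cells, 36 at 50 nM and 37 at 250 nM. The same 35 were on in all 3 groups, 31 were on in none, and 3, among them HOXB7 and TBX6, crossed the limit between groups. Symbols without a row, not analysed here, were HOXB4, HOXC5, HOXD4, HOXD8, TWIST1, GATA5, GATA6, SIX3, SIX5 and TBX10.

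The HOX code was made mostly of HOXC genes. Summed over genes, the HOXC cluster supplied between 64.4% and 69.5% of all HOX FPKM in every library, the HOXB cluster 16.6% to 20.5%, the HOXA cluster 11.6% to 13.7% and the HOXD cluster 1.05% to 2.15%. In HOXC 5 of 8 genes were on, in HOXB 6 of 9, in HOXA 6 of 11 and in HOXD 0 of 7. Along the paralog numbers, groups 4 to 8 held 65.4% to 71.6% of HOX FPKM, groups 1 to 3 held 12.6% to 15.9%, and groups 9 to 13 held 15.5% to 20.7%. HOXB4, HOXC5, HOXD4 and HOXD8, all of groups 4 to 8, had no row and are missing from these shares and counts. By the limit of 1 FPKM the code ended at paralog 10. Only HOXC9, HOXB9 and HOXC10 were on from group 9 upwards, and none of 9 genes of groups 11 to 13 was on. That end depends on the scale. In counts scaled by library size but not by length (CPM), HOXD13 averaged 1.39 and HOXA11 0.996, against 0.875 for HOXB7, which was on. These last 9 genes held 0.739% to 1.46% of HOX FPKM, with HOXD13 the highest at 0.631 FPKM.

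**Figure D1:**
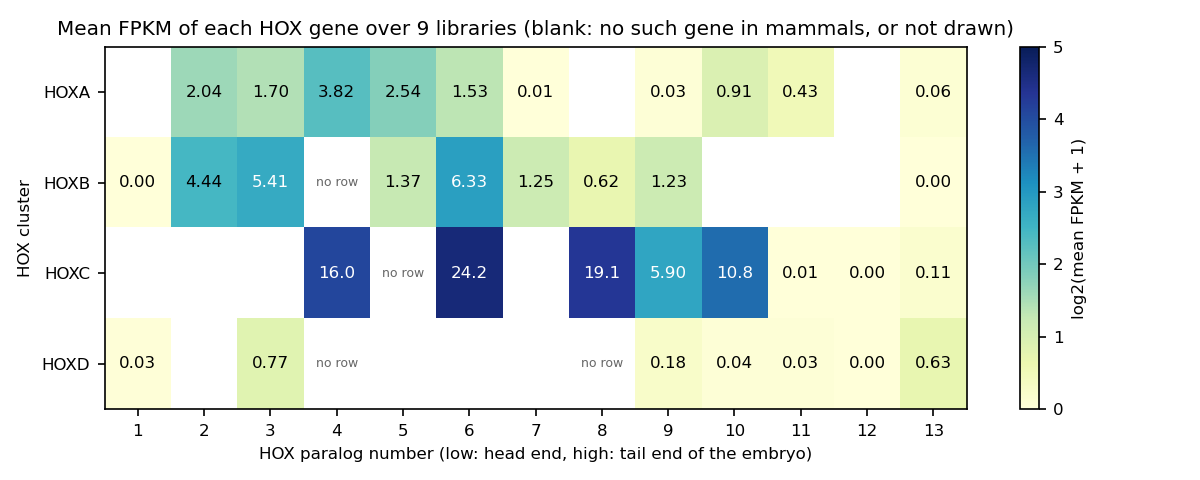
HOX genes by cluster (rows) and paralog number (columns), with the mean FPKM over 9 libraries printed in each cell and coloured on a log2(FPKM + 1) scale. The high cells lie in the HOXC row between HOXC4 and HOXC10, and the cells of paralogs 11 to 13 are all below 1 FPKM.

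The members that carry most of this code were HOXC6, HOXC8, HOXC4 and HOXC10. HOXC6, a gene of thoracic identity and of limb and mammary development in the mouse, averaged 24.2 FPKM over the 9 libraries. HOXC8, which patterns thoracic vertebrae and motor neurons in the mouse, averaged 19.1 FPKM, and HOXC4, at the head end of its cluster, 15.95 FPKM. Further towards the tail end, HOXC9 averaged 5.901 FPKM and HOXC10, a gene of the lumbar spinal cord and hindlimb, 10.8 FPKM, whereas the next genes, HOXC11, HOXC12 and HOXC13, were at or below 0.115 FPKM. HOXC10 was steady between libraries of a group, with 11.3, 11.4 and 10.98 FPKM in the control libraries, 10.1, 10.2 and 9.46 FPKM at 50 nM and 11.4, 11.1 and 11.2 FPKM at 250 nM. The order of HOXC6 and HOXC8 depends on the scale: per length HOXC6 was higher, whereas by CPM (counts scaled by library size but not by length) HOXC8 averaged 85.4 and HOXC6 17.8.

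In the HOXB cluster the highest genes were HOXB6, HOXB3 and HOXB2. HOXB6 had 8.01, 6.32 and 6.71 FPKM in the control libraries, 5.13, 5.403 and 6.62 FPKM at 50 nM and 5.25, 6.48 and 7.08 FPKM at 250 nM. HOXB3, a hindbrain and neck gene in the embryo, had 5.701, 6.703 and 5.39 FPKM in the control libraries, 5.16, 4.75 and 4.92 FPKM at 50 nM and 5.41, 5.39 and 5.24 FPKM at 250 nM. HOXB2 had 5.32, 4.54 and 4.94 FPKM in the control libraries, 4.58, 4.21 and 4.63 FPKM at 50 nM and 4.28, 3.82 and 3.61 FPKM at 250 nM. The 3 groups overlapped for HOXB6, all 3 libraries at 50 nM lay below control for HOXB3, and all 3 at 250 nM lay below control for HOXB2. Below them HOXB5, HOXB7 and HOXB9 averaged 1.37, 1.25 and 1.23 FPKM, and HOXB8 was below the limit at 0.623 FPKM. In the RefSeq annotation of the rabbit assembly mOryCun1.1 the span of HOXB3 overlaps HOXB5 and HOXB6, and HOXB8 overlaps HOXB9, so counts could be shared among them.

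By the limit of 1 FPKM the HOXA cluster was on up to HOXA6 and not beyond, with HOXA10 just under the limit. HOXA4 had 4.68, 4.61 and 3.97 FPKM in the control libraries, 4.67, 3.05 and 3.39 FPKM at 50 nM and 3.44, 3.38 and 3.196 FPKM at 250 nM. HOXA5, needed for lung and diaphragm development in the mouse, had 2.72, 3.48 and 3.16 FPKM in the control libraries, 1.795, 2.16 and 2.05 FPKM at 50 nM and 2.68, 2.54 and 2.29 FPKM at 250 nM. HOXA2, a gene of the hindbrain and its neural crest, had 2.24, 1.88 and 2.69 FPKM in the control libraries, 1.35, 1.82 and 2.603 FPKM at 50 nM and 1.76, 2.05 and 1.97 FPKM at 250 nM. For HOXA4 all 250 nM libraries lay below control. For HOXA5 all libraries of both estradiol groups did on the FPKM scale, whereas by CPM only those at 50 nM did. HOXA2 overlapped throughout. HOXA3 and HOXA6 averaged 1.70 and 1.53 FPKM. HOXA7 and HOXA9 were near 0, with at most 5 and 9 count units in any library. HOXA10 and HOXA11 pattern the uterus in the mouse. HOXA10, which also marks the receptive endometrium, had 1.01, 0.852 and 1.06 FPKM in the control libraries, 1.09, 0.662 and 0.796 FPKM at 50 nM and 0.872, 0.947 and 0.935 FPKM at 250 nM. HOXA11 had 0.474, 0.4497 and 0.414 FPKM without estradiol, 0.696, 0.309 and 0.347 FPKM at 50 nM and 0.466, 0.395 and 0.324 FPKM at 250 nM, and the libraries of all groups overlapped for both genes. In HOXD, the highest genes were HOXD3 at 0.7697 and HOXD13 at 0.631 FPKM, both under the limit, and HOXD1, HOXD9, HOXD10 and HOXD11 were at or below 0.179 FPKM. HOXA13 averaged 0.0647 FPKM.

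Outside the HOX clusters 20 of 34 members were on. PRRX1, a homeobox factor of limb bud and craniofacial mesenchyme, was the highest member of all and exceeded 98.4% of all genes of the table. It had 219, 254 and 229 FPKM in the control libraries, 239.6, 256 and 209.7 FPKM at 50 nM and 233, 242 and 247 FPKM at 250 nM, and the groups overlapped. FOXF1, a forkhead factor of the mesenchyme around gut and lung, had 13.3, 12.2 and 15.7 FPKM in the control libraries, 14.6, 16.9 and 14.7 FPKM at 50 nM and 15.2, 14.6 and 13.7 FPKM at 250 nM. WT1, used in kidney, gonad and mesothelium and expressed in uterine stroma and muscle, had 10.1, 11.7 and 11.4 FPKM in the control libraries, 11.8, 12.4 and 11.7 FPKM at 50 nM and 10.7, 11.7 and 11.4 FPKM at 250 nM. FOXF1 overlapped between groups, and the 3 libraries at 50 nM lay just above control for WT1 by CPM (log2 fold change 0.16 ± 0.08 (SE, adjusted p = 0.311) by edgeR, not passed). EMX2 (5.95 FPKM), a homeobox factor of the urogenital tract, TWIST2 (5.24 FPKM), a basic helix-loop-helix factor of dermis and other mesenchyme, and HAND2 (2.12 FPKM), used in heart, limb and endometrial stroma, were lower but on. HAND1 was listed at 0.

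**Figure D2:**
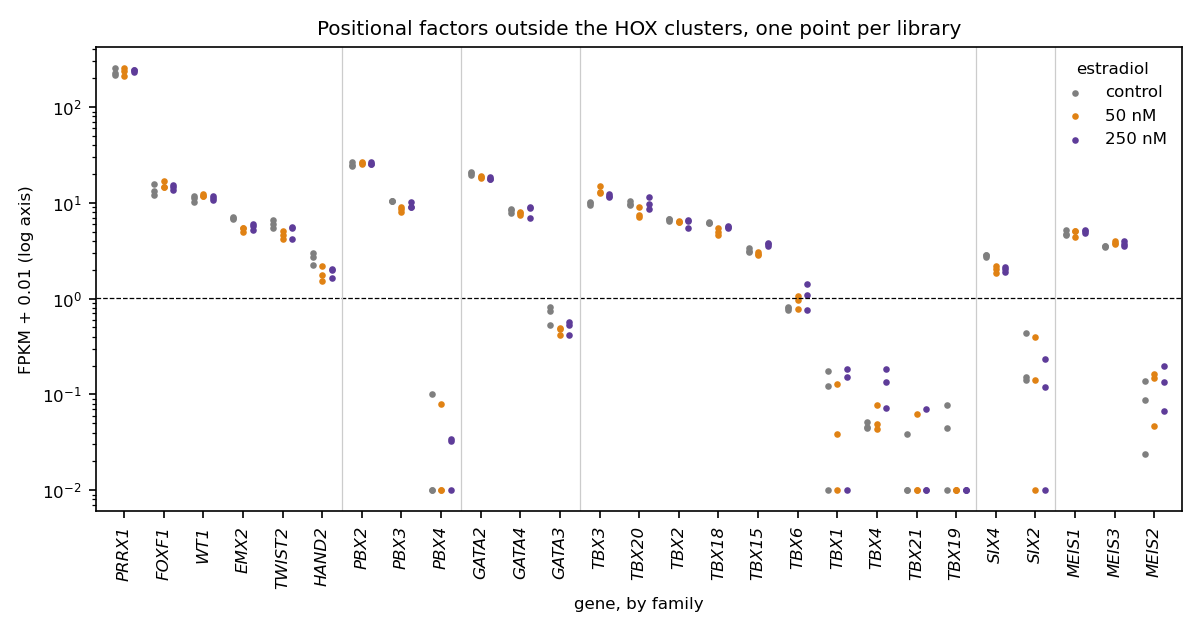
FPKM + 0.01 on a log axis for 27 members outside the HOX clusters with some FPKM above 0, with 1 point per library and the control, 50 nM and 250 nM groups side by side. The dashed line is the limit of 1 FPKM. PRRX1 lies above all others, and GATA3, PBX4, SIX2 and MEIS2 fall below the line that their relatives exceed.

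Among the HOX partners, PBX2 came next after PRRX1 in level. PBX2 had 24.3, 26.9 and 24.6 FPKM in the control libraries, 25.9, 26.6 and 25.4 FPKM at 50 nM and 25.7, 26.8 and 25.7 FPKM at 250 nM. Its groups overlapped. PBX3 was lower, with 10.6, 10.4 and 10.5 FPKM in the control libraries, 9.14, 8.56 and 8.07 FPKM at 50 nM and 9.04, 9.11 and 10.2 FPKM at 250 nM, and all libraries of both estradiol groups lay below all control libraries on this scale, whereas by CPM only those at 50 nM did. PBX4 was near 0. MEIS1 averaged 4.93 FPKM and had 5.14, 4.62 and 4.73 FPKM without estradiol, 5.07, 5.09 and 4.44 FPKM at 50 nM and 5.25, 5.12 and 4.89 FPKM at 250 nM, with all groups overlapping. MEIS3 had 3.52, 3.45 and 3.58 FPKM without estradiol, 3.82, 3.95 and 3.73 FPKM at 50 nM and 3.53, 4.00 and 3.702 FPKM at 250 nM, whereas MEIS2 averaged 0.102 FPKM. For MEIS3 all 50 nM libraries lay above control, and all those at 250 nM did so by CPM but not on the FPKM scale. PBX2, PBX3, MEIS1 and MEIS3 were thus on beside the HOX genes in every group.

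Of the T-box genes, 5 of 12 were on. TBX20, a heart factor, had 10.4, 9.79 and 9.61 FPKM in the control libraries, 9.05, 7.43 and 7.14 FPKM at 50 nM and 9.74, 11.5 and 8.59 FPKM at 250 nM, and its 50 nM libraries lay below control. TBX2, a repressor related to TBX3, had 6.48, 6.78 and 6.76 FPKM in the control libraries, 6.54, 6.32 and 6.36 FPKM at 50 nM and 6.64, 6.47 and 5.51 FPKM at 250 nM, with overlapping groups. TBX3 averaged 11.8 FPKM, TBX18, used in epicardium, sinus node and the mesenchyme of the ureter, 5.61 FPKM, and TBX15, a factor of skeleton and body wall, 3.28 FPKM. The limb genes TBX5 and TBX4 were at 0 and at 0.0682 FPKM, although TBX5 is the neighbour of TBX3, and TBX4 the neighbour of TBX2, in RefSeq. TBX6, of the early somites, stood near the limit, and TBX1, TBX19 and TBX21 averaged at most 0.0825 FPKM. Of the GATA factors, GATA2, known from blood, endothelium and endometrial stroma, had 21.2, 19.8 and 20.5 FPKM in the control libraries, 19.2, 18.5 and 18.1 FPKM at 50 nM and 17.6, 18.7 and 17.9 FPKM at 250 nM. All 6 estradiol libraries lay below all control libraries for GATA2. Its log2 fold change by edgeR was -0.09 at 50 nM and -0.14 at 250 nM, and neither passed the test (adjusted p = 0.516 and 0.467). GATA4, of heart, gonad and gut, had 7.89, 8.62 and 8.48 FPKM in the control libraries, 7.90, 7.45 and 8.05 FPKM at 50 nM and 6.92, 9.01 and 8.93 FPKM at 250 nM, with overlapping groups, and GATA3 averaged 0.545 FPKM. Of the sine oculis homologues, SIX4 was on, at 2.28 FPKM.

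Changes with estradiol were tested with edgeR over the 12324 genes that passed a filter on low counts, 50 of the 69 members among them (24 HOX genes and 26 others). The other 19 members, all below 1 FPKM, were not tested. Fold changes are on the log2 scale of normalised counts, estradiol over control, and p-values are adjusted over all genes tested, with a threshold of 0.05. Levels for these comparisons are CPM. In bulk RNA, fewer cells of a kind and less RNA per cell cannot be told apart.

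At 50 nM, 6 members fell and 1 rose relative to control. HOXC4, HOXC6, HOXC8, SIX4 and EMX2 were among the lower ones, and TBX3 was higher. The 7 called members are 14% of the 50 tested, against 3.25% of all genes tested. The 6 lower ones are 12% of the members, against 1.70% of all genes, and the 1 higher one is 2%, against 1.55%. The median log2 fold change over the tested members was -0.17, against 0.00 over all genes, with 33 members below 0 and 17 above. Over all genes 50.6% were below 0. The median was -0.21 over the 24 HOX genes and -0.06 over the 26 other members.

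The largest of the called decreases was that of HOXC6. It had 22.3, 24.8 and 20.5 CPM in the control libraries, 13.8, 14.1 and 13.9 CPM at 50 nM and 16.96, 18.5 and 15.2 CPM at 250 nM. Every library at 50 nM, and every library at 250 nM, lay below every control library, and the 250 nM libraries lay above those at 50 nM. The mean was 13.9 ± 0.176 CPM at 50 nM, against 22.5 ± 2.18 CPM in control cells (SD, n = 3 each). By edgeR this is a log2 fold change of -0.69 ± 0.09 (SE, adjusted p = 0.000537), with a 95% interval of -0.89 to -0.50.

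HOXC8 had 91.05, 98.6 and 92.2 CPM without estradiol, 77.7, 80.7 and 71.4 CPM at 50 nM and 80.8, 91.5 and 84.2 CPM at 250 nM. All 50 nM libraries lay below control, and 1 of 3 libraries at 250 nM reached the lowest control library. Its log2 fold change at 50 nM was -0.29 ± 0.07 (SE, adjusted p = 0.0224) by edgeR. HOXC4 had 50.0, 55.4 and 46.8 CPM without estradiol, 38.9, 41.4 and 36.7 CPM at 50 nM and 38.5, 47.5 and 44.3 CPM at 250 nM, with the same order at 50 nM and an overlap at 250 nM, and changed by -0.38 ± 0.09 (SE, adjusted p = 0.0229) at 50 nM. The remaining HOXC genes that were on did not pass the test at 50 nM, with -0.10 ± 0.09 (SE, adjusted p = 0.677) for HOXC9 and -0.13 ± 0.07 (SE, adjusted p = 0.42) for HOXC10. Whether these genes differ from HOXC6 in their change was not tested. In RefSeq the 3 genes that fell are consecutive among the HOXC rows analysed here, and the spans of HOXC6 and HOXC4 overlap, so that part of their counts could be shared and their changes may not be independent.

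As a sum, HOXC genes held 64.8 ± 1.79 FPKM at 50 nM and 74.6 ± 3.41 FPKM at 250 nM, against 88.7 ± 4.49 FPKM in control cells (SD, n = 3 each). The HOXC share of all HOX FPKM was 65.8% ± 1.26 at 50 nM and 68.1% ± 0.67 at 250 nM, against 68.6% ± 0.88 in control cells. The HOXA and HOXB sums were lower too, at 12.8 ± 0.67 and 19.1 ± 0.83 FPKM at 50 nM, against 16.3 ± 0.61 and 22.7 ± 1.03 FPKM in control cells. Sums are on the deposited FPKM scale, where the median over genes lay slightly lower with estradiol. By limma on log2(FPKM + 1) the median change over all genes was -0.05 at 50 nM and -0.04 at 250 nM. By edgeR it was -0.002 and -0.005. The HOXD sum was 1.86 ± 0.34 FPKM at 50 nM, against 1.59 ± 0.33 FPKM in control cells, and its share 1.89% ± 0.36 against 1.22% ± 0.20. Of 4 HOXD genes tested, 3 had a log2 fold change above 0 at 50 nM, with a median of 0.43, and 0 passed the test by edgeR. The order of the clusters was the same in all 9 libraries. No HOXA or HOXB gene passed the test at 50 nM by edgeR. The lowest adjusted p among them was that of HOXA5, -0.58 ± 0.19 (SE, adjusted p = 0.115).

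SIX4 is a homeobox factor of muscle, kidney and sensory placodes that works with EYA coactivators. SIX4 had 14.8, 15.1 and 14.2 CPM without estradiol, 10.1, 12.1 and 10.9 CPM at 50 nM and 11.5, 11.1 and 10.1 CPM at 250 nM, with all libraries of both estradiol groups below all controls. Its log2 fold change at 50 nM was -0.41 ± 0.09 (SE, adjusted p = 0.023) by edgeR. SIX2 had at most 25 count units in a library and SIX6 none.

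EMX2, which HOXA10 represses in human endometrium, had 14.8, 15.4 and 14.2 CPM without estradiol, 11.99, 11.02 and 11.8 CPM at 50 nM and 13.01, 12.5 and 11.4 CPM at 250 nM. All 6 estradiol libraries lay below control, and its log2 fold change at 50 nM was -0.35 ± 0.09 (SE, adjusted p = 0.0393) by edgeR. TBX3, a T-box repressor of limb, mammary gland and heart that holds back cell cycle inhibitors, had 24.9, 25.7 and 23.7 CPM without estradiol, 38.9, 33.8 and 33.1 CPM at 50 nM and 29.7, 30.6 and 31.99 CPM at 250 nM. Here all libraries with estradiol lay above all controls, and those at 50 nM above those at 250 nM. The mean was 35.3 ± 3.199 CPM at 50 nM, against 24.7 ± 0.993 CPM in control cells (SD, n = 3 each), a log2 fold change by edgeR of 0.51 ± 0.08 (SE, adjusted p = 0.0012) with a 95% interval of 0.35 to 0.67.

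**Figure D3:**
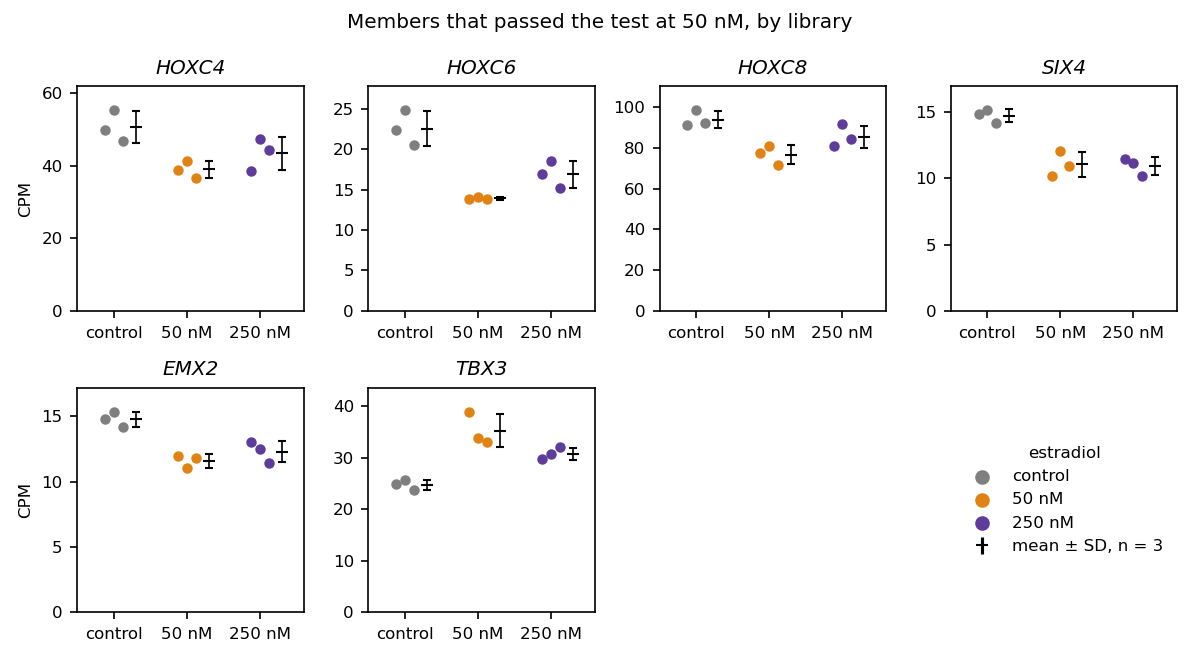
CPM in each library for 6 members that passed the test at 50 nM, in the order control, 50 nM, 250 nM, with the mean ± SD of 3 libraries beside the points. HOXC4, HOXC6, HOXC8, SIX4 and EMX2 have all 50 nM libraries below all control libraries, and TBX3 has them above.

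HOXC6 and TBX3 passed the test whichever library was left out. Of the others, SIX4 lost its call without any 1 of the control libraries or 50 nM replicate 1, HOXC8 without control replicate 2 or 3 or 50 nM replicate 1 or 3, and HOXC4 without control replicate 2 or 50 nM replicate 1 or 3. EMX2 lost it without any 1 of the control libraries, 50 nM replicate 1 or 2, or 250 nM replicate 1 or 2. Without 50 nM replicate 1, the count of called members was 2, without 50 nM replicate 3 HAND2 was called too, and without control replicates 1, 2 and 3 in turn it was 4, 3 and 3.

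Counting the called members, 17 of 50 had all 50 nM libraries below all control libraries (34%, against 10.1% of all genes tested), and 3 had them above, MEIS3, WT1 and TBX3 (6%, against 8.88%). The 17 included HAND2, which had 7.67, 5.87 and 6.99 CPM without estradiol, 4.67, 4.11 and 5.77 CPM at 50 nM and 5.25, 5.41 and 4.32 CPM at 250 nM. All estradiol libraries lay below control for HAND2, and its change at 50 nM, -0.50 ± 0.15 (SE, adjusted p = 0.0967) by edgeR, did not pass the test. Changes of TBX18, -0.24 ± 0.08 (SE, adjusted p = 0.113), PBX3, -0.23 ± 0.08 (SE, adjusted p = 0.117), and GATA3, -0.55 ± 0.19 (SE, adjusted p = 0.154), did not pass either. At an unadjusted p under 0.05 stood 15 members, 30% of those tested, against 15.6% of all genes.

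At 250 nM 1 member passed the test by edgeR, in the lower direction. That is 2% of the 50 tested members, against 0.308% of all genes tested, and in the lower direction 2% against 0.105%. In the higher direction it was 0 of 50, against 0.203% of all genes. The count was 0 without control replicate 1 or 3 or any 1 of the 250 nM libraries. Members called at 50 nM that had the same sign at 250 nM without passing were HOXC6 -0.42 ± 0.09 (SE, adjusted p = 0.0833), SIX4 -0.43 ± 0.09 (SE, adjusted p = 0.0833) and TBX3 0.31 ± 0.08 (SE, adjusted p = 0.13) by edgeR. DESeq2 called these 3 as well. EMX2, HOXC4 and HOXC8 stood at -0.27, -0.22 and -0.14. The 2 comparisons share the control libraries, so equal signs are no separate evidence.

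At 250 nM all libraries lay below control for 9 members (18%, against 7.76% of all genes tested) and above for 4 (8%, against 7.75%), MEIS3, TBX3, TBX4 and TBX15. The median log2 fold change was -0.11 over the members, against 0.00 over all genes, with 31 below 0 and 19 above. Over all genes 51.8% were below 0. By edgeR, 12 of the 50 members had an unadjusted p under 0.05, against 8.67% of all genes tested. TBX4, chosen after its values were seen, had 12, 14 and 12 count units without estradiol, 12, 12 and 20 count units at 50 nM and 55, 39 and 24 count units at 250 nM. Its log2 fold change at 250 nM was 1.70 ± 0.55 (SE, adjusted p = 0.315) by edgeR and did not pass the test, and its highest level in any library was 0.174 FPKM.

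**Figure D4:**
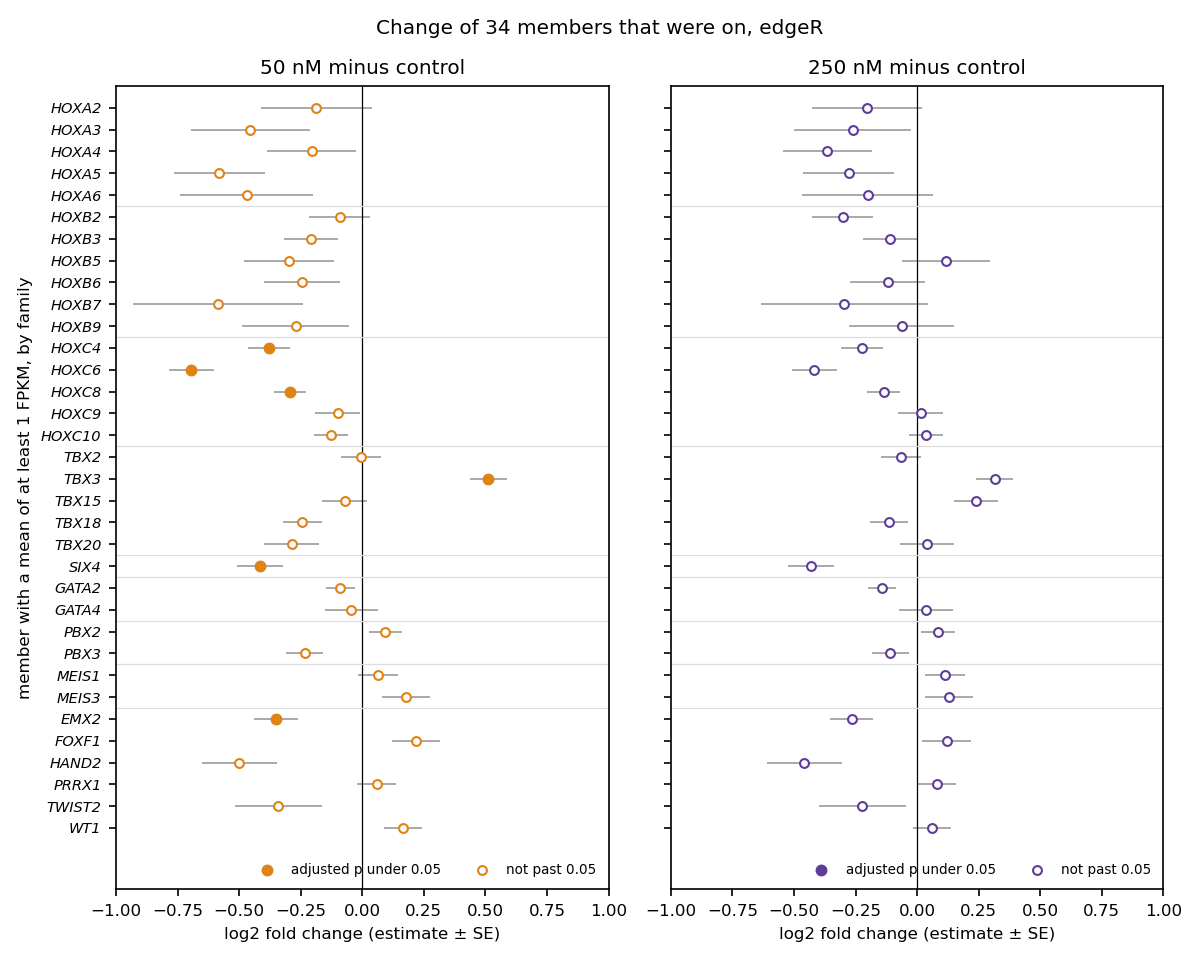
Log2 fold change ± SE by edgeR for 34 members that were on, at 50 nM (left) and 250 nM (right) relative to control, with filled points for an adjusted p under 0.05. Filled points at 50 nM are HOXC4, HOXC6, HOXC8, SIX4 and EMX2 to the left of 0 and TBX3 to the right, and none of the members drawn is filled at 250 nM.

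Between 250 nM and 50 nM no member passed the test, against 0.325% of all genes tested (edgeR, 0 of 50 members, and 0 by DESeq2). At an unadjusted p under 0.05 stood 8 of the 50 members, against 5.68% of all genes tested. The lowest p-values were those of TBX15, HOXC6 and TBX20. TBX15 had 10.99, 12.5 and 11.3 CPM without estradiol, 11.3, 11.2 and 10.6 CPM at 50 nM and 12.97, 14.4 and 13.8 CPM at 250 nM, so its 250 nM libraries lay above both other groups, with a log2 fold change of 0.31 ± 0.09 (SE, adjusted p = 0.296) by edgeR for 250 nM over 50 nM. HOXC6 stood at 0.28 ± 0.09 (SE, adjusted p = 0.515), with a 95% interval of 0.08 to 0.47, and TBX20 at 0.33 ± 0.11 (SE, adjusted p = 0.536). For TBX3 the interval of this difference was -0.36 to -0.04. A p that misses the threshold does not show that levels were equal at both doses.

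Genes that work with the members were counted in the same way, beside the 3.25% of all genes tested that passed at 50 nM. The lists are short, and whether their counts differ from that share was not tested. Of the TALE homeobox relatives of MEIS and PBX, 6 of 9 were on, led by TGIF1 (17.3 FPKM), PKNOX2 (15.4 FPKM) and TGIF2 (12.3 FPKM), and 0 of 7 tested passed at 50 nM. Of the EYA and DACH partners of SIX4 and its relatives, EYA3 was on (12.2 FPKM), EYA1, DACH1 and DACH2 were listed at 0, and 0 of 3 tested passed. The dimer partners of TWIST and HAND, TCF4 (34.3 FPKM) and TCF12 (22.8 FPKM), were on and did not pass, and the GATA partner ZFPM2 was near 0. Retinoic acid and CDX factors set HOX patterns in the embryo. Of these, RARA (40.8 FPKM), RARG (30.4 FPKM) and RXRB (13.9 FPKM) were highest, CDX1, CDX2 and CDX4 were listed at 0, and 0 of 8 tested passed.

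Polycomb and Trithorax proteins keep HOX genes off or on. All 15 with a row were on, and 1 of 15 passed at 50 nM, against 3.25% of all genes tested. PHC2, a Polycomb subunit, rose by 0.25 ± 0.05 on the log2 scale (SE, adjusted p = 0.0159, edgeR). It had 110.2, 107 and 113 CPM without estradiol, 129.9, 133 and 128 CPM at 50 nM and 119, 123 and 123 CPM at 250 nM, without overlap between 50 nM and control. Of 34 other homeobox and mesodermal position genes with a row, 14 were on, with PRRX2 (88.6 FPKM), OSR1 (76.9 FPKM) and NR2F2 (13.98 FPKM) highest. MSX2, a BMP-responsive homeobox repressor, was the 1 of 19 tested that passed at 50 nM, against the same 3.25% of all genes. It had 29.7, 29.3 and 29.2 CPM without estradiol, 18.2, 20.6 and 21.7 CPM at 50 nM and 24.8, 24.1 and 24.1 CPM at 250 nM, a log2 fold change at 50 nM of -0.54 ± 0.07 (SE, adjusted p = 0.000633) by edgeR. At 250 nM relative to control, and between the doses, 0 genes of these 7 lists passed, against 0.308% and 0.325% of all genes tested.

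Of the 10 fibroblast and mesenchymal markers, 2 passed the test at 50 nM and 1 at 250 nM, against 3.25% and 0.308% of all genes tested. All of them were collagen I genes. COL1A1 and COL1A2 rose at 50 nM, with log2 fold changes by edgeR of 0.18 ± 0.04 (SE, adjusted p = 0.026) and 0.18 ± 0.04 (SE, adjusted p = 0.0159). COL1A1 also rose at 250 nM, by 0.22 ± 0.04 (SE, adjusted p = 0.0401, edgeR). The summed FPKM of the list ran between 10206 and 10435 at 50 nM and 10303 and 10625 at 250 nM, against 9560 to 10012 in control cells. The summed smooth muscle markers overlapped, with 2634 to 2808 FPKM at 50 nM and 2695 to 2750 FPKM at 250 nM, against 2712 to 2872 FPKM in control cells, and 0 of 9 tested passed. Endothelial markers summed to at most 1.56 FPKM in any library and leukocyte markers to at most 0.369 FPKM. The part of these markers in the changes of the members was not tested.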

How the data were processed

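mRNA of 9 libraries (3 with β-estradiol at 50 nM, 3 at 250 nM, 3 control) was measured by sequencing. The labels' treatment protocol states 250 nM only and tags the control samples as estrogen with concentration WT, so groups were taken from the sample titles. The labels name a small RNA kit for the mRNA libraries, and the species was not checked. The authors deposited estimated counts (whole numbers, used as deposited) and FPKM values per gene. Per the submitters' processing notes, Trim Galore, TopHat2 2.1.1, Cufflinks and Cuffdiff were used. The genome build was not given in the sources used here, nor were the annotation, the strand setting or the step that made each table. Low deposited counts pile up at multiples of 4, so about 4 units were taken as 1 fragment, and totals correspond to about 13679602 to 18068616 fragments. 0 columns of other samples were left out.

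Counts cover all members found, and the values of some of them are not reported here. Members were found by symbol, and 67 of 69 matched RefSeq mOryCun1.1, used for names and neighbours only. Members, gene lists and tests were chosen with earlier results of these data known. Genes were kept by filterByExpr (minimum count 10), and 12324 of 19291 remained. Tests used edgeR 4.0.16 in R 4.3.3 (quasi-likelihood F test, TMM factors, 9 libraries sharing 1 estimate of the spread, Benjamini-Hochberg adjustment within a comparison, threshold 0.05). The SE is the size of the log2 fold change over the root of F. The biological coefficient of variation was 8.92%. Library numbers were not used as pairs. Libraries of a group differed by more than sampling noise in a chi-square test, and none was merged. Values are given in every library for the 3 highest members of each family that were on, each member that passed a test, the 3 lowest p-values of a comparison, and HOXA10, HOXA11, HAND2, GATA2, EMX2, WT1 and FOXF1, with CPM for members set between groups and FPKM for levels. Alternatives were RLE factors, DESeq2 1.42.0, other filters, limma 3.58.1 on log2(FPKM + 1) and log2(FPKM + 0.1), 2 groups only, a replicate block, each library left out, and counts divided by 4. The scripts were tested on simulated data.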

Additional observations from a re-analysis of the deposited data

How the results depend on the processing

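Fold changes were recomputed under the alternatives for members that passed a test and for the 3 lowest p-values of each comparison. HOXA10, HOXA11, HAND2, GATA2, EMX2, WT1 and FOXF1 were recomputed against control too. Each count of called members and the count of members that were on were also recomputed. Fold changes of other members named, such as HOXC9, HOXC10, HOXA5, TBX18, PBX3, GATA3 and TBX4, were not compared across the alternatives. HOXC6 (-0.76 to -0.62) and TBX3 (0.42 to 0.55) at 50 nM passed in all 19 alternatives run. HOXC8, HOXC4 and SIX4 were lost in 4 of 19 each and EMX2 in 8. The count at 50 nM ran between 2 and 7 when libraries were left out in turn. At 250 nM the count of 1 became 4 by DESeq2, 2 with no filter on low counts, and 0 by limma on log2(FPKM + 1) with no filter, and ran between 0 and 1 with libraries left out. All genes called differed too. At 50 nM they were 401 by edgeR, 702 by DESeq2 and 244 with only the 2 groups compared. With libraries left out they ran between 187 (without control replicate 3) and 564 (without 50 nM replicate 3). At 250 nM they were 38, 140 and 52. There they ran between 5 (without 250 nM replicate 3) and 56 (without 50 nM replicate 3). Between the doses they were 40 by edgeR and 99 by DESeq2, and 21 to 50 with libraries left out. limma also called HOXA5 at 50 nM. The causes of these differences were not tested. Leaving a library out also leaves fewer degrees of freedom.

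The labels name no pairing of libraries by number. After the group mean was taken off each gene, same-numbered libraries of different groups correlated by -0.03 to 0.04. Differently numbered libraries of different groups correlated by -0.08 to 0.07. With 3 libraries a group, these correlations cannot exclude that equal numbers shared a culture or batch. With the replicate block the count was 7 at 50 nM, 2 at 250 nM (HOXC6 added) and 0 between doses. All genes called with the block were 492, 43 and 42, against 401, 38 and 40 without it.

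Reversed signs concerned estimates that were not called, some of them with a wide range. HOXA10 at 50 nM ran between -0.36 and 0.00011 with libraries left out, and at 250 nM between -0.12 and 0.018. HOXA11 at 50 nM was -0.0028 with the replicate block and -0.0050 by limma with no filter, and ran between -0.39 and 0.27 with libraries left out. WT1 at 250 nM ran between -0.0031 and 0.11, and SIX4 between the doses between -0.073 and 0.053. Of the 69 members, 22 had a mean of at least 5 FPKM, where 37 had at least 1. Counts divided by 4, an alternative chosen after seeing the data, gave 7, 1 and 0 called members. Members on few fragments (HOXA, HOXD, TBX4) have wide errors.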
